A study of Danio rerio with 15 samples.

Results

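The provisional matrix of a regenerating fin was followed through 10 listed zebrafish genes: the tenascin gene tnc, the fibronectin genes fn1a and fn1b, the hyaluronan synthase genes has1 and has2, the link protein gene hapln1a, the versican genes vcana and vcanb, the hyaluronan receptor gene cd44a and the periostin gene postnb. They were chosen by symbol from the deposited table, with earlier results of these data known. Shares of all tested genes printed beside counts of these or related genes are thus a description, not a test. Of the 10 genes 9 were found among the table's 14836 gene symbols, and cd44a was not analysed here. The RefSeq table of assembly GRCz12tu lists tnc under the symbol tncb.

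After a fin is cut, the stump forms a blastema, a mass of proliferating mesenchymal cells under a wound epidermis, and these cells lie in a loose, hydrated matrix that differs from the collagen-rich matrix of the mature ray. Hyaluronan synthases at the cell membrane spin out the long sugar hyaluronan. Link proteins fasten versican, a large chondroitin sulphate proteoglycan, onto that chain. Fibronectin, tenascin C and periostin are secreted glycoproteins that integrins bind, and they set how firmly cells attach and move. Such a matrix is known from newt and axolotl limbs as well as from zebrafish fins and hearts.

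Bulk RNA-seq libraries were made from wild-type zebrafish fins, from the tissue within 1 bone segment of the amputation plane on either side. Collection was at 0, 4, 7, 14 and 21 days post amputation (dpa), with 3 libraries per time point and a pool of 10 animals in each library. The sample labels give the second time point as 4 dpa and the series text gives 3.5 dpa. No mutant, drug or transgene is named, the age of the fish is not given in the sources used here, and the 0 dpa fins served as the reference.

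Levels are given as scaled TPM, the deposited length-normalised abundance divided by a median-of-ratios factor per library, so levels of different genes can be compared. Genes were tested with limma on log2(scaled TPM + 1) over the 10163 genes that reached a scaled TPM of 1 in 3 or more libraries, and "changed" means a Benjamini-Hochberg adjusted p under 0.05. Changes on this scale understate the fold of genes near 1 TPM. All 9 genes passed the filter. The genes fn1a, fn1b, hapln1a, vcanb and postnb were at or above 1 in all 15 libraries, tnc in 13, has1 and has2 in 11 and vcana in 10. For has1, has2 and vcana the small values rest on few reads, and the absolute depth is unknown.

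Libraries differed in ways the time points do not explain. A gene of RefSeq type rRNA took from 2.26 to 71.6% of the TPM, and over 60% in 4 dpa replicate 3, 7 dpa replicates 1 and 2 and 21 dpa replicate 2. Relative depth, read from the ratios of low values between libraries, ran from 0.445 to 2.52 times the mean, and outside the rRNA gene from 0.126 in 4 dpa replicate 3 to 2.46 in 0 dpa replicate 1. With the number of sets fixed at 2, the same ratios divided the libraries into sets that no label names. Set A comprised every library of 0 and 4 dpa with replicates 1 and 3 of 7 dpa. The remaining 7 dpa library, replicate 2, fell with all those of 14 and 21 dpa into set B. Differences between early and late time points therefore cannot be told apart from library set, apart from what the 7 dpa libraries show. The fin mesenchyme markers msx1b, tph1b, aldh1a2, and1 and and2 and the epidermal markers tp63, krt4 and epcam were all present, and none of the 11 mesenchyme or 8 epidermis markers was at 0 in every library.

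At 4 dpa tnc, fn1a, fn1b and has1 had risen, and has2, hapln1a, vcana and vcanb showed no change past the test. Of the 9 genes 4 rose and 0 fell at 4 against 0 dpa, where 15.4% of all tested genes changed (8.04% higher, 7.39% lower). The median log2 change was 0.62 over the 9 genes and -0.03 over all tested genes. On the scaled TPM the 3 libraries at 4 dpa lay above the 3 at 0 dpa for 6 of the 9 genes, has2 and postnb included. That compares with 15.3% of tested genes, and none of the 9 genes lay below (16.5% of tested genes). With the deposited TPM the ranges of has2 and postnb overlapped. All 0 and 4 dpa libraries are in set A, so a fit within that set gave the same changes with another estimate of the spread. The same 4 genes were called in it, and also with the deposited TPM. Across the 5 time points 5 of the 9 genes changed (tnc, fn1a, fn1b, has1 and has2; moderated F test), where 27% of tested genes did. The adjusted p of that test ran from 5.69e-06 for tnc to 0.00417 for fn1a, and was 0.0801 for postnb, 0.0972 for hapln1a, 0.266 for vcana and 0.647 for vcanb. The has2 call over time was lost with the deposited TPM (adjusted p = 0.0776) and with a term for library set (0.0929).

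**Figure D1:**
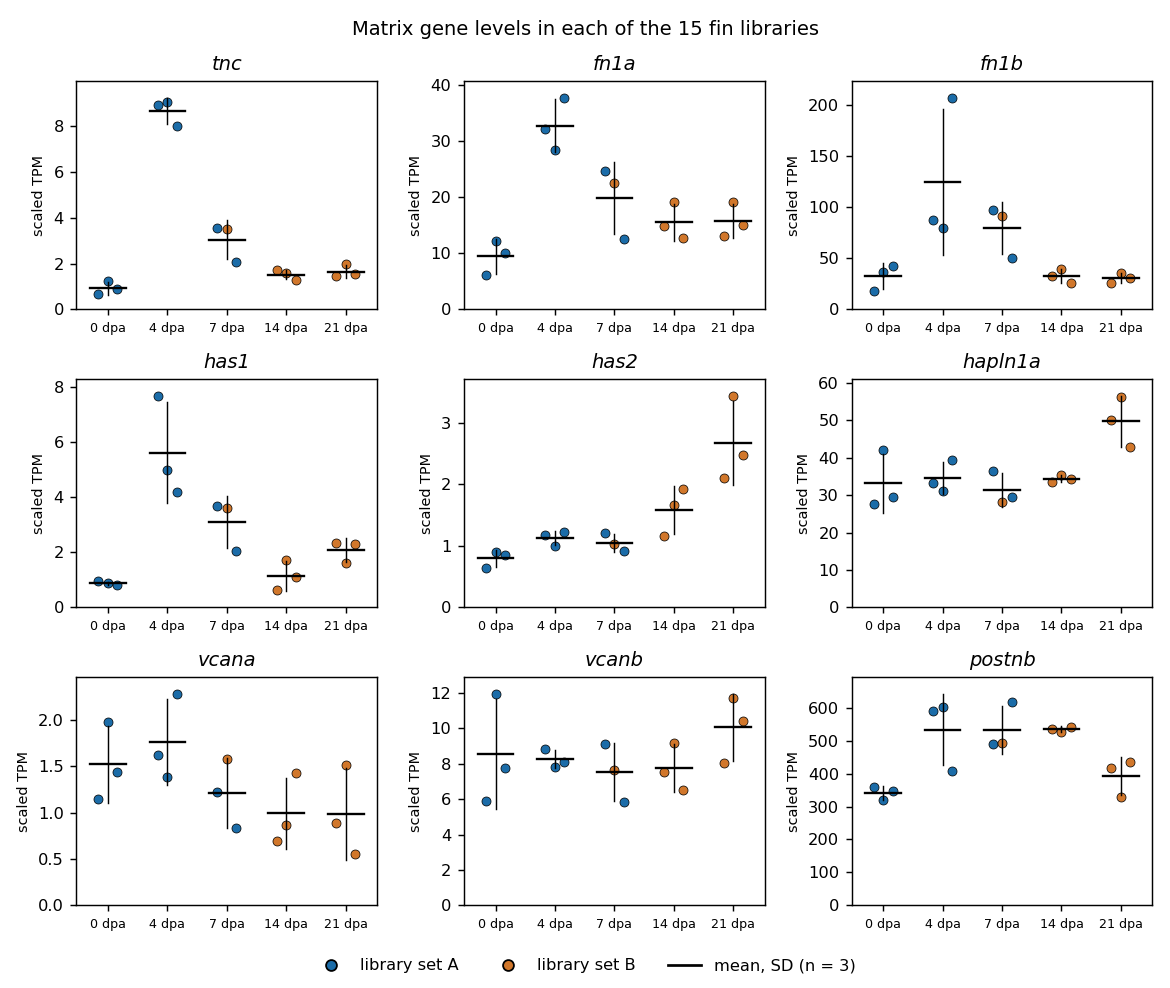
Level (scaled TPM, linear axis from 0) of each of the 9 genes in every library, by days post amputation. Points are libraries coloured by library set, and bars are the mean and SD of 3 libraries. The 3 libraries at 4 dpa are the highest of all 15 for tnc, from 8.02 to 9.07, and has2 is highest at 21 dpa.

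Tenascin C, a hexameric glycoprotein that loosens adhesion to fibronectin and marks healing and regenerating tissue, was near 1 scaled TPM at 0 dpa. The tnc gene stood at 0.680, 1.24 and 0.872 scaled TPM in 0 dpa replicates 1, 2 and 3. It was at 8.92, 9.07 and 8.02 at 4 dpa, at 3.55, 3.51 and 2.06 at 7 dpa, at 1.70, 1.58 and 1.28 at 14 dpa and at 1.45, 1.96 and 1.53 at 21 dpa. The 4 dpa libraries were the highest, the 7 dpa libraries next, and the 14 and 21 dpa libraries overlapped each other while lying above every 0 dpa library. With the deposited TPM the 21 dpa range, 1.13 to 1.71, overlapped the 0 dpa range, 0.449 to 1.43.

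The tnc change at 4 against 0 dpa was 2.33 on the log2 scale (SE 0.17, limma adjusted p = 1.68e-06), higher in 3 of 3 libraries. With a pseudocount of 0.1 in place of 1 it was 3.12, since the 0 dpa level is near the floor. From 4 to 7 dpa tnc fell by 1.28 (SE 0.17, adjusted p = 6.06e-04), the only one of the 9 genes called in that step, where 3.77% of tested genes changed (1.15% higher, 2.62% lower). On the scaled TPM the ranges of fn1a and has1 also lay wholly lower at 7 than at 4 dpa, as for 10.3% of tested genes, and no gene of the 9 lay wholly higher (9.49%). With the deposited TPM the 4 and 7 dpa ranges of has1 overlapped. At 14 and 21 dpa the tnc change from 0 dpa was 0.39 and 0.46 (SE 0.17 for each, adjusted p = 0.179 and 0.0941), and neither passed the test. Without 7 dpa replicate 3 the adjusted p at 21 dpa was 0.0498. With a term for library set the tnc change at 21 dpa was 0.19 (adjusted p = 0.979). With the deposited TPM it was 0.37 (adjusted p = 0.704).

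Fibronectin, the adhesive glycoprotein that integrin alpha5 beta1 binds and that forms the first fibrillar scaffold of wounds, is encoded by a pair of zebrafish genes. The fn1a gene was at 6.11, 12.3 and 10.03 scaled TPM at 0 dpa and at 32.2, 28.4 and 37.7 at 4 dpa. It was at 24.6, 22.6 and 12.6 at 7 dpa, at 14.8, 19.2 and 12.7 at 14 dpa and at 13.1, 19.1 and 15.1 at 21 dpa. On the scaled TPM every later library exceeded the highest 0 dpa library, 4 dpa stood above all others, and the 7, 14 and 21 dpa ranges overlapped. With the deposited TPM the lowest 7 and 21 dpa values, 13.8 and 11.0, were below the highest 0 dpa value, 14.2.

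The fn1b gene was the more abundant partner in every library. It was at 18.2, 37.0 and 42.6 scaled TPM at 0 dpa, at 87.7, 80.2 and 207 at 4 dpa, at 97.0, 91.5 and 50.8 at 7 dpa, at 33.1, 39.5 and 25.7 at 14 dpa and at 25.6, 35.7 and 30.8 at 21 dpa. The highest value, in 4 dpa replicate 3, was in the library with the largest rRNA share and the least depth. On the scaled TPM the other 4 dpa libraries overlapped 7 dpa. With the deposited TPM all 4 dpa libraries, from 118 to 145, lay above those of 7 dpa, from 55.7 to 89.8. At 14 and 21 dpa fn1b overlapped the 0 dpa range.

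The log2 change at 4 against 0 dpa was 1.73 for fn1a (SE 0.28, limma adjusted p = 7.33e-04) and 1.85 for fn1b (SE 0.38, adjusted p = 0.00442). At 7 dpa the changes from 0 dpa were 0.99 (SE 0.28, adjusted p = 0.0534) and 1.295 (SE 0.38, adjusted p = 0.0686), with non-overlapping groups for both genes but no call. Without 7 dpa replicate 3, the lowest of its group, both passed (adjusted p = 0.0139 and 0.0288). So did fn1a without 0 dpa replicate 2 (0.0411) and fn1b without 4 dpa replicate 3 (0.0309). Both passed with library weights, and fn1a with a filter at 5 scaled TPM and without the intensity trend. With the deposited TPM neither passed (adjusted p = 0.475 and 0.334) and the fn1a groups overlapped. Within library set A neither passed (0.413 and 0.478). Without the 4 libraries over 60% rRNA, which leaves 1 library at 7 dpa, the changes were 0.42 and 0.71. Later, fn1a was higher than at 0 dpa by 0.69 at 14 dpa and 0.71 at 21 dpa (SE 0.28 each, adjusted p = 0.139 and 0.105). Both comparisons cross the library sets, and with a term for the set the fn1a changes were 0.35 and 0.37 (adjusted p = 0.999 and 0.975). From 4 to 7 dpa its change was -0.73 (SE 0.28, adjusted p = 0.189). Reads shared between the pair could have been divided between them in ways the sources used here do not record.

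**Figure D2:**
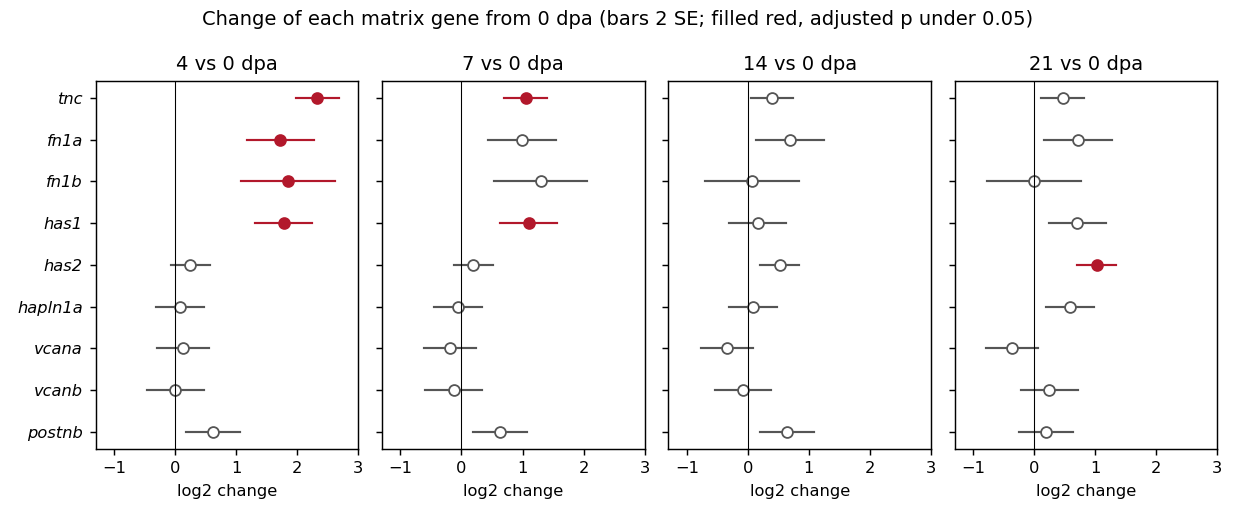
Log2 change of each gene from 0 dpa at 4, 7, 14 and 21 dpa, on the log2(scaled TPM + 1) scale. Points are limma estimates, bars span 2 standard errors on either side, and filled red points have an adjusted p under 0.05. Red points are 4 genes at 4 dpa, tnc and has1 at 7 dpa, none at 14 dpa and has2 at 21 dpa.

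Hyaluronan synthases make the sugar backbone of the matrix, and the time courses of has1 and has2 differed. The has1 gene was at 0.937, 0.873 and 0.821 scaled TPM at 0 dpa and at 7.66, 4.99 and 4.17 at 4 dpa. It was at 3.66, 3.62 and 2.02 at 7 dpa, at 0.615, 1.70 and 1.103 at 14 dpa and at 2.34, 1.60 and 2.31 at 21 dpa. On the scaled TPM the 4 dpa libraries were above all others, 14 dpa overlapped 0 dpa, and 21 dpa overlapped 7 and 14 dpa. With the deposited TPM 4 dpa replicate 3 was at 2.92, inside the 7 dpa range of 2.22 to 3.39.

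The has1 change was 1.78 at 4 against 0 dpa (SE 0.23, limma adjusted p = 1.52e-04; 2.50 with a pseudocount of 0.1) and 1.1001 at 7 against 0 dpa (SE 0.23, adjusted p = 0.0154). From 4 to 7 dpa it was -0.68 (SE 0.23, adjusted p = 0.138), and at 21 against 0 dpa it was 0.71 (SE 0.23, adjusted p = 0.0588), so neither passed. The latter passed without 4 dpa replicate 1, 4 dpa replicate 3 or 7 dpa replicate 3 (adjusted p = 0.0478, 0.0475 and 0.0384). It also passed with upper-quartile scaling, a pseudocount of 0.1, only the 2 time points and library weights (adjusted p = 0.0466, 0.0380, 0.0424 and 0.0202). Without the 4 libraries over 60% rRNA it was 0.83. In 6 of the 11 alternatives other than leaving out 1 library it did not pass. The comparison of 21 with 0 dpa crosses the library sets, and with a term for the set the has1 change was 0.41 (adjusted p = 0.933). With the deposited TPM it was 0.65 (adjusted p = 0.475). The 2 calls at 7 against 0 dpa, for has1 and tnc, compare with 5% of tested genes called (2.53% higher, 2.47% lower). With the deposited TPM, where 31 of 10235 tested genes were called, both calls were lost (adjusted p = 0.245 and 0.195) while the changes were 1.13 and 1.06. Within library set A, where 25 of 9695 tested genes were called, both were lost (0.208 and 0.171) with changes of 1.0006 and 0.96. Without the 4 libraries over 60% rRNA both were lost (0.439 and 0.255) with changes of 0.69 and 0.67. That last fit leaves 1 library at 7 dpa, which is assumed to vary like the other groups. The has1 call was also lost without 0 dpa replicate 3, 7 dpa replicate 1 or 7 dpa replicate 2 (adjusted p = 0.0505, 0.0746 and 0.0866).

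The has2 gene, which makes the hyaluronan that the embryonic heart valves of zebrafish and mouse need, was lowest at 0 dpa. It stood at 0.643, 0.892 and 0.848 scaled TPM at 0 dpa, at 1.17, 1.004 and 1.23 at 4 dpa, at 1.204, 1.04 and 0.913 at 7 dpa, at 1.16, 1.67 and 1.93 at 14 dpa and at 2.103, 3.44 and 2.48 at 21 dpa. On the scaled TPM every later library was above the 0 dpa range, and the 21 dpa libraries were the highest of all 15. With the deposited TPM the 4 and 7 dpa ranges overlapped that of 0 dpa.

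The has2 change at 4 against 0 dpa was 0.25 (SE 0.16, limma adjusted p = 0.333), at 14 against 0 dpa 0.52 (SE 0.16, adjusted p = 0.0557) and at 21 against 0 dpa 1.02 (SE 0.16, adjusted p = 9.57e-04). It was the 1 gene of 9 called at 21 dpa, where 13.7% of tested genes changed (6.32% higher, 7.38% lower). With limma 0 of 9 were called at 14 dpa, where 10.2% were (4.6% higher, 5.64% lower), and 4 (tnc, fn1a, has2 and postnb) had an unadjusted p under 0.05, as did 24.9% of tested genes. Without 14 dpa replicate 1 or 21 dpa replicate 2, has2 was called at 14 dpa (adjusted p = 0.0453 and 0.0373). The 21 against 0 dpa comparison crosses the sets: when a term for the set was added, the has2 change was 1.03 with an adjusted p of 0.220, and with the deposited TPM it was 0.90 (adjusted p = 0.0650). Inside set B, from 14 to 21 dpa, has2 differed by 0.50 (SE 0.16, adjusted p = 0.182). The groups did not overlap, as for 8.5% of tested genes in that direction. With the deposited TPM that change was 0.15, and the groups overlapped (1.38 to 2.85 at 14 dpa, 1.98 to 2.76 at 21 dpa).

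Because a ratio of 2 genes in 1 library does not depend on scaling, related genes were also compared within each library, a comparison chosen after the values had been seen. The has1/has2 ratio was 1.46, 0.978 and 0.968 at 0 dpa and 6.55, 4.96 and 3.40 at 4 dpa. It was 3.04, 3.49 and 2.22 at 7 dpa, 0.531, 1.02 and 0.571 at 14 dpa and 1.11, 0.464 and 0.934 at 21 dpa. All 4 and 7 dpa libraries were above all others. The ratio differed over time (exact permutation F test on log2 ratios over 1401400 partitions, two-sided by construction, p = 2.53e-04, adjusted over 3 ratios 7.60e-04). Within set A it also did (exact adjusted p = 0.0214), and 7 dpa replicate 2, the set B library at that time, had the highest of the 7 dpa ratios.

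The fn1b/fn1a ratio was 2.97, 3.02 and 4.25 at 0 dpa, 2.73, 2.82 and 5.51 at 4 dpa, 3.95, 4.06 and 4.03 at 7 dpa, 2.24, 2.06 and 2.03 at 14 dpa and 1.95, 1.87 and 2.04 at 21 dpa. The 14 and 21 dpa libraries were below all earlier ones. The ratio differed over time (exact permutation F test, p = 0.00701, adjusted over 3 ratios 0.0105). Within set A, at 0, 4 and 7 dpa, no difference passed (exact adjusted p = 0.850), and the 14 and 21 dpa libraries that stood lower are all in set B. The ratio of 4.06 in 7 dpa replicate 2, which is in set B, stood beside 3.95 and 4.03 in the set A libraries of that time point and lay above every set B library of 14 and 21 dpa.

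**Figure D3:**
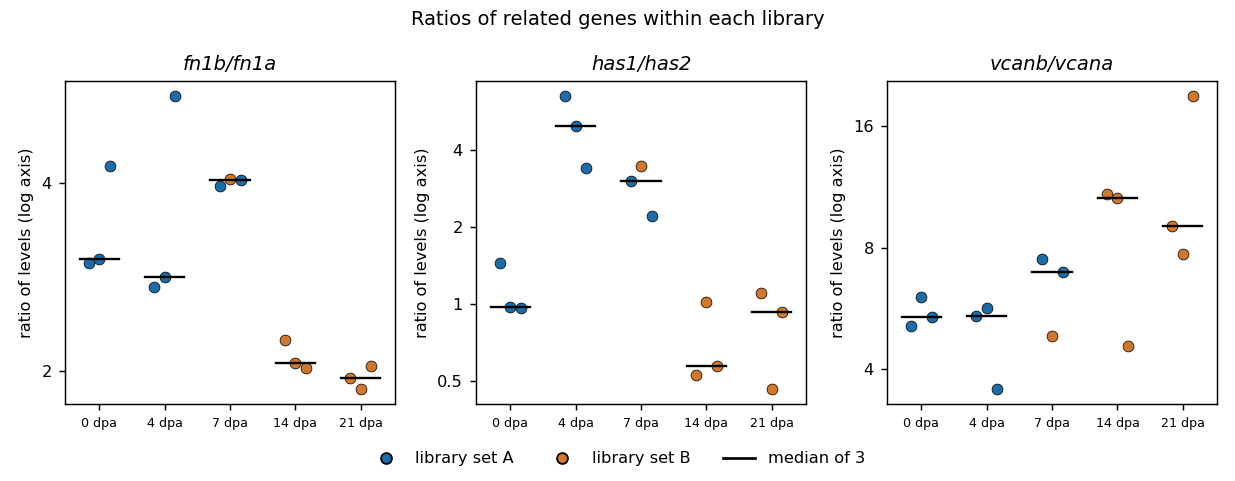
Ratio of the levels of 2 related genes within each library (logarithmic axis), by days post amputation, with points coloured by library set and bars at the median of 3 libraries. The has1/has2 ratio is 2.22 or more in the 4 and 7 dpa libraries and 1.46 or less in the others, and fn1b/fn1a is 2.24 or less at 14 and 21 dpa.

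Link protein and versican bind hyaluronan into a gel. In the fit used throughout, no change of hapln1a, vcana or vcanb passed the test. The link protein gene hapln1a was at 27.7, 42.2 and 29.6 scaled TPM at 0 dpa, at 33.3, 31.1 and 39.4 at 4 dpa, at 36.5, 28.1 and 29.4 at 7 dpa, at 33.6, 35.5 and 34.2 at 14 dpa and at 50.1, 56.4 and 42.8 at 21 dpa. On the scaled TPM the 21 dpa libraries were the 3 highest of 15, and the other time points overlapped. The change at 4 against 0 dpa was 0.08 (limma SE 0.20, adjusted p = 0.843; 2 SE on either side spans -0.31 to 0.47). At 21 against 0 dpa, which crosses the library sets, it was 0.59 (SE 0.20, adjusted p = 0.0611), and 0.77 (adjusted p = 0.0251) without 0 dpa replicate 2. It passed with upper-quartile scaling, without the intensity trend and with library weights (adjusted p = 0.0421, 0.0461 and 0.0131). With the deposited TPM it was 0.52 (adjusted p = 0.714), and with a term for library set 0.80 (adjusted p = 0.552). From 14 to 21 dpa, inside set B, it was 0.51 (SE 0.20, adjusted p = 0.309). With the deposited TPM that last change was 0.002, and the groups overlapped.

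In that fit neither versican gene was called in any comparison. The vcanb gene was at 5.89, 11.95 and 7.76 scaled TPM at 0 dpa, at 8.83, 7.83 and 8.13 at 4 dpa, at 9.13, 7.65 and 5.82 at 7 dpa, at 7.55, 9.19 and 6.501 at 14 dpa and at 8.02, 11.7 and 10.4 at 21 dpa. All time points overlapped the 0 dpa range. Its change at 4 against 0 dpa was 0.01 (SE 0.23, adjusted p = 0.991; 2 SE on either side spans -0.45 to 0.47), so a rise as large as that of tnc lies outside the interval.

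The vcana gene was at 1.15, 1.97 and 1.44 scaled TPM at 0 dpa, at 1.63, 1.38 and 2.28 at 4 dpa, at 1.22, 1.58 and 0.834 at 7 dpa, at 0.693, 0.862 and 1.42 at 14 dpa and at 0.884, 1.52 and 0.548 at 21 dpa. The time points overlapped throughout. Its change was 0.13 at 4 dpa (SE 0.21, adjusted p = 0.747) and -0.36 at 21 dpa (SE 0.21, adjusted p = 0.289), both against 0 dpa. The vcanb/vcana ratio ranged from 3.57 in 4 dpa replicate 3 to 19.1 in 21 dpa replicate 3 and did not pass over time (exact permutation F test, adjusted over 3 ratios p = 0.0847). Without 14 dpa replicate 3, at 4.57, that exact adjusted p was 0.0157.

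Periostin, a matricellular protein of fibroblasts and bone-lining cells that aids collagen assembly, was by far the most abundant of the transcripts. The postnb gene made up from 57.0 to 86.5% of the summed level of the 9 genes in a library. It was at 360, 319 and 347 scaled TPM at 0 dpa, at 591, 602 and 409 at 4 dpa, at 489, 494 and 617 at 7 dpa, at 537, 525 and 543 at 14 dpa and at 416, 328 and 435 at 21 dpa. On the scaled TPM all libraries at 4, 7 and 14 dpa were above the 0 dpa range, and 21 dpa overlapped it. With the deposited TPM 4 dpa replicate 3 was at 287, inside the 0 dpa range of 238 to 369.

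In the fit used throughout, no change of postnb passed the test. Against 0 dpa the estimates for 4, 7 and 14 dpa were 0.62, 0.63 and 0.64 (SE 0.22, limma adjusted p = 0.0714, 0.114 and 0.0792). Without 4 dpa replicate 3 the change at 4 dpa was 0.80 with an adjusted p of 0.0318. When TPM was instead rescaled after leaving out the rRNA gene, the 3 changes were 1.42, 1.36 and 1.26 and all passed (adjusted p = 7.37e-04, 0.00610 and 0.00974). That rescaling also put the median change of all tested genes at 0.58, 0.53 and 0.43, against -0.03 at each time in the fit used throughout. The postnb values under that rescaling include this shift. On the scaled TPM, postnb passed at 4 and 14 dpa without the intensity trend (adjusted p = 0.0281 and 0.0338). It passed at 4, 7 and 14 dpa with library weights (adjusted p = 7.64e-05, 0.0102 and 0.00288). In these comparisons that fit, whose weights did not converge fully, called 5071, 3128 and 2960 of all 10163 tested genes. The fit used throughout called 1568, 508 and 1041. Without the 4 libraries over 60% rRNA the postnb change at 4 dpa was 0.80. From 14 to 21 dpa, inside set B, the change was -0.45 (SE 0.22, adjusted p = 0.489), and the groups did not overlap, as for 8.53% of tested genes in that direction. In that step 0 of the 9 genes were called, where 1.44% of tested genes were (0.699% higher, 0.738% lower), and 3 (hapln1a, has1 and has2) had an unadjusted p under 0.05, as did 10.8% of tested genes.

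The comparisons with 0 dpa share the same 3 libraries, so they are not independent of each other. On the scaled TPM, non-overlapping, higher groups were found for 6 of 9 genes at 7 dpa (10.4% of tested genes), 4 of 9 at 14 dpa (14.5%) and 5 of 9 at 21 dpa (14.7%). With the deposited TPM fn1a and has2 overlapped 0 dpa at 7 dpa, and tnc, fn1a, has1 and hapln1a did at 21 dpa. The genes separate at 14 dpa stayed so, as did has2 at 21 dpa. The comparisons of 14 and 21 with 0 dpa cross the library sets. No gene of the 9 lay wholly below its 0 dpa range at any time, whereas 10.7% of tested genes did at 7 dpa, 16% at 14 dpa and 15.2% at 21 dpa.

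**Figure D4:**
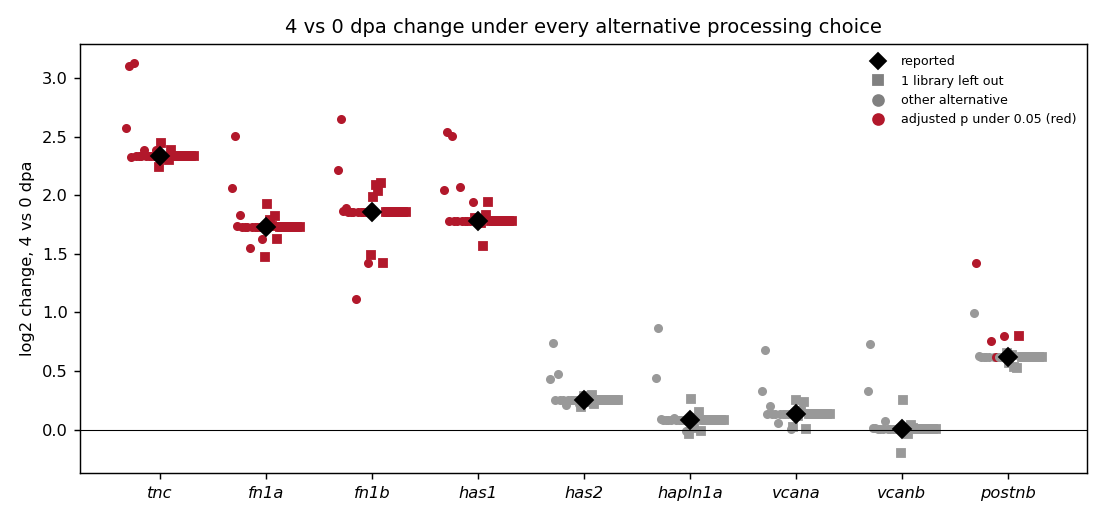
Log2 change at 4 against 0 dpa of each gene under every alternative processing choice. Diamonds are the reported values, squares leave out 1 library, circles are other alternatives, and red marks an adjusted p under 0.05. The marks of tnc, fn1a, fn1b and has1 are red throughout, from 1.12 to 3.12, and those of has2, hapln1a, vcana and vcanb are grey throughout.

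Markers of other cells and of division moved at 4 dpa as well. Of all tested genes 8.04% were called higher at 4 against 0 dpa and 7.39% lower. The summed level of 11 mesenchyme and blastema markers was 55.6 to 66.0 scaled TPM at 0 dpa and 204 to 695 at 4 dpa, and 8 of the 11 rose. The largest part of the 4 dpa sum was the actinotrichia gene and1, at 383, 523 and 117 in replicates 1, 2 and 3. Without it the sums were 49.7 to 62.0 at 0 dpa and 86.4 to 172 at 4 dpa. The mesenchyme marker msx2b had a negative estimate (-0.51, limma adjusted p = 0.111). Its 4 dpa libraries, from 3.71 to 4.14, lay below those of 0 dpa, from 4.87 to 6.77. All 8 cell cycle markers rose, with a sum of 27.7 to 31.8 at 0 dpa and 125 to 147 at 4 dpa. Of 7 tested endothelial markers 5 rose, with sums of 32.4 to 37.6 and 67.5 to 78.1. The 8 epidermal markers summed to 6595 to 7913 at 0 dpa and 4183 to 5771 at 4 dpa, with 1 of 8 called lower, and 3 of 5 tested nerve and Schwann markers fell. The 7 osteoblast markers summed to 2213 to 7661 at 0 dpa and 1442 to 2721 at 4 dpa, although 3 of the 7 were called higher. Most of each sum was bglap, at 7391, 2123 and 2017 at 0 dpa and 1437, 1831 and 977 at 4 dpa. The bglap change was -1.21 (limma adjusted p = 0.146), and every other osteoblast marker had a positive estimate. None of the 6 macrophage, 2 neutrophil, 5 pigment cell or 3 red blood cell markers tested was called at 4 dpa, and the 1 muscle marker tested fell. Red blood cell markers summed to 9.85 to 82.4 at 0 dpa and 101 to 237 at 4 dpa. From 4 to 7 dpa, where tnc fell, all 8 cell cycle markers and 3 of the 11 mesenchyme markers (and1, and2 and tph1b) were called lower. Of all tested genes 2.62% were. At 21 dpa, where has2 was highest, 7 of the 11 mesenchyme markers were called higher than at 0 dpa. The sum of the 11 was then 119 to 135, and 6.32% of all tested genes were called higher. That comparison crosses the library sets, and with a term for the set 31 of all 10163 tested genes were called. In pooled tissue more cells of a type and more RNA per cell cannot be told apart, and the part of these shifts in the matrix gene changes was not tested.

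Some receptors of this matrix also rose at 4 dpa. Of 18 listed integrin, syndecan and related receptor genes 11 were in the table and tested, and 5 rose and 0 fell at 4 against 0 dpa, where 8.04% of all tested genes rose (median log2 change 0.70, against -0.03 over all genes). The fibronectin receptor subunit gene itga5 went from 4.90 ± 1.65 scaled TPM in the 0 dpa libraries to 13.2 ± 2.57 at 4 dpa (SD, n = 3). That is 1.29 on the log2 scale (SE 0.24, limma adjusted p = 0.00221). Its level was 7.12 ± 2.15 at 7 dpa and 5.12 ± 0.441 at 14 dpa. The tenascin-binding subunit gene itga9 went from 0.996 ± 0.260 to 2.97 ± 0.328 (log2 change 0.999, SE 0.19, adjusted p = 0.00261), and itgb3b, a subunit that pairs with alpha v, from 2.42 ± 0.256 to 5.29 ± 1.24 (0.86, SE 0.22, adjusted p = 0.0175). The others called were itga3b and itgb1b. The heparan sulphate receptor gene sdc4 was called at 21 dpa instead, from 31.1 ± 6.44 at 0 dpa to 60.3 ± 13.7 (0.93, SE 0.25, adjusted p = 0.0247). It was the 1 of 11 tested receptor genes called there, in a comparison that crosses the library sets. Of all tested genes 6.32% were called higher there and 7.38% lower. At 14 dpa sdc4 was at 44.8 ± 3.02, and its change from 14 to 21 dpa, inside set B, was 0.40 (SE 0.25, adjusted p = 0.662).

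Other matricellular genes were examined as well. Of 32 listed genes 22 were in the table and 13 were tested; 3 rose and 0 fell at 4 dpa, 5 rose at 7 dpa, 4 rose at 14 dpa, and 3 rose and 1 fell at 21 dpa. Of all tested genes 8.04, 2.53, 4.6 and 6.32% were called higher at those times, and 7.38% lower at 21 dpa. The thrombospondin gene thbs4b, whose protein organises tendon matrix in zebrafish, went from 13.8 ± 0.208 scaled TPM (SD, n = 3) to 52.1 ± 9.34 at 4 dpa and was 28.3 ± 0.837 at 7 dpa. Its log2 change at 4 dpa was 1.83 (SE 0.16, limma adjusted p = 6.13e-06). The related gene thbs3a went from 7.02 ± 1.92 to 34.4 ± 2.89 (log2 change 2.17, SE 0.20, adjusted p = 1.04e-05). The gene tnn, another tenascin, went from 10.2 ± 2.15 to 24.4 ± 2.34 at 4 dpa (1.196, SE 0.19, adjusted p = 8.25e-04) and was still at 24.5 ± 4.33 at 7 dpa, where tnc had fallen from its 4 dpa level. The integrin ligand gene ccn1 was at 15.3 ± 2.49 at 0 dpa and 57.7 ± 10.3 at 21 dpa (1.85, SE 0.24, adjusted p = 2.16e-04). From 14 to 21 dpa, inside set B, ccn1 changed by 1.56 (SE 0.24, adjusted p = 0.00396). The comparisons of 14 and 21 with 0 dpa cross the library sets.

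For hyaluronan, genes of precursor supply, breakdown and binding were examined. Of 27 listed genes 18 were in the table and 7 were tested, 3 changed over time (27% of all tested genes did) and 1 rose at 4 dpa (8.04% of all tested genes did): ugdh, the enzyme that makes the UDP-glucuronate used by hyaluronan synthases. It went from 2.73 ± 0.367 scaled TPM (SD, n = 3) to 4.74 ± 1.03 (log2 change 0.61, SE 0.19, limma adjusted p = 0.0395). At 14 dpa it was 1.31 ± 0.282 and called lower than at 0 dpa (adjusted p = 0.0302), across the library sets. The scavenger receptor gene stab1 was at 0.880 ± 0.237 and 1.58 ± 0.192 at 0 and 4 dpa (adjusted p = 0.0569), and the link protein gene hapln3 at 0.728 ± 0.166 and 1.35 ± 0.280 (adjusted p = 0.0532). The 3 genes changed over time were ugdh, stab1 and hapln3 (moderated F test, adjusted p = 0.00154, 0.00979 and 0.0263). The hyaluronan receptor gene lyve1a was at 53.4 ± 12.8 and 53.9 ± 9.77 (adjusted p = 0.971).

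Of 13 listed lectican and versican-cleaving protease genes 4 were in the table and 2 were tested. The protease gene adamts15a rose from 2.11 ± 0.775 scaled TPM (SD, n = 3) to 6.76 ± 2.13 at 4 dpa (log2 change 1.32, SE 0.26, limma adjusted p = 0.00337). It was 5.19 ± 0.849 at 21 dpa, where it was also called higher than at 0 dpa (adjusted p = 0.0191), across the library sets. The gene adamts9 was at 0.823 ± 0.318 and 1.24 ± 0.419 at 0 and 4 dpa (adjusted p = 0.385).

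**Figure D5:**
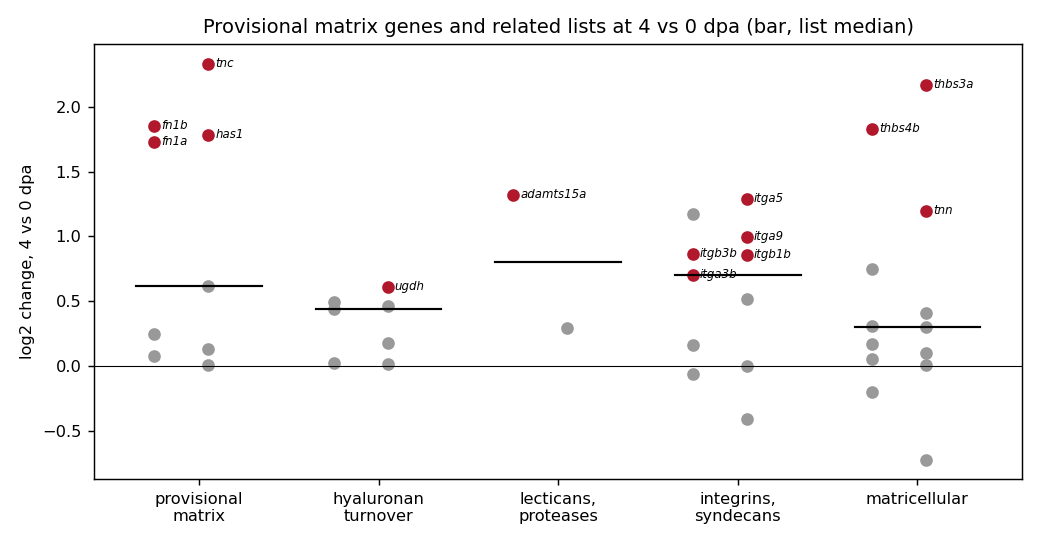
Log2 change at 4 against 0 dpa of the 9 provisional matrix genes and of the tested genes of 4 related lists. Each point is a gene, red and named where the adjusted p is under 0.05, and bars are list medians. The highest change is that of tnc at 2.33, followed by thbs3a at 2.17.

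The genes whose levels across the 15 libraries most resembled the mean standardised level of the 9 genes were ttyh3b, padi2 and stt3a, with Pearson correlations of 0.950, 0.947 and 0.945. The next were prdm1a, atf5a, pdia5, itgb3b and rbms2b, from 0.923 to 0.904. These are descriptions over 15 libraries that share depth and scaling, out of all tested genes. For each of the 9 genes the correlation with the mean of the other 8, which leaves the gene itself out, was 0.932 for fn1a, 0.778 for tnc, 0.729 for has1 and 0.662 for fn1b. It was 0.316 or less for vcanb, vcana, hapln1a, has2 and postnb.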

How the data were processed

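The deposited table holds TPM made by the authors, 1 column per library, each summing to 1000000. The submitters' processing notes name Trim Galore 0.6.7, cutadapt 3.5, Salmon 1.4.0 and build danRer11; the annotation is not given in the sources used here, and no coordinates are printed because the gene table at hand is of another assembly. Per the labels' protocols, cDNA was amplified by PCR and tagmented with Tn5, without molecular identifiers.

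Deposited TPM was divided by median-of-ratios factors and tested in R 4.3.3 with limma 3.58.1 (1 mean per time point, 15 libraries, intensity trend, two-sided). In the deposited TPM the median gene shifted by 0.25, 0.06, 0.31 and -0.08 (log2) at 4, 7, 14 and 21 against 0 dpa. The test was tried on simulated libraries. Library sets came from average linkage of the share of low genes (median TPM under 0.4) whose log ratio fell in a window of 0.004. The number of sets was fixed at 2 and not found by the clustering. That share had a median of 14.4% within sets (5.97 to 28.5%) and 3.40% between sets (2.14 to 7.15%), so the ranges overlapped. Relative depth from the same ratios closed within 2% for 101 of 105 library pairs. Symbols absent from the table were looked up through RefSeq synonyms; tnn was listed as tnw, and spp1 is in 2 lists. The 14 named companion genes are, per list, up to 4 with the smallest F test p. The 9 genes, lists and tests were chosen with earlier results of these data known. Nothing says that pools were separate clutches or days, so p-values measure the spread between pools.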

Additional observations from a re-analysis of the deposited data

How the results depend on the processing

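At 4 against 0 dpa the calls of tnc, fn1a, fn1b and has1 held in the 15 fits that left out 1 library (4 to 5 genes called) and in the 13 other alternatives, except that has1 was not tested with a filter at 5 scaled TPM. The counts elsewhere were small and moved. At 7 against 0 dpa (2 genes) the count was 0 with the deposited TPM, with only the 2 time points fitted, within library set A and without the 4 libraries over 60% rRNA; it was 1 with library set as a covariate, 5 with library weights, and 1 to 4 when 1 library was left out. At 14 against 0 dpa (0 genes) it was 1 with TPM rescaled without the rRNA gene (postnb), with a pseudocount of 0.1 (has2) and without the intensity trend (postnb), 4 with library weights, and 0 to 1 when 1 library was left out. At 21 against 0 dpa (1 gene) it was 0 with the deposited TPM, a filter at 5 and the set covariate; 2 with a pseudocount of 0.1, without the trend, with only the 2 time points and without the 4 libraries; 3 with upper-quartile scaling, 5 with library weights, and 1 to 3 when 1 library was left out. Over time (5 genes) it was 4 with the deposited TPM and with the set covariate (has2 lost), 6 with TPM rescaled without the rRNA gene and without the trend (postnb added), 3 with the filter at 5, 8 with library weights (hapln1a, postnb and vcana added) and 5 to 6 when 1 library was left out. At 7 against 4 dpa (1 gene) it was 3 with library weights. The weights did not converge fully. The cause of these moves was not tested, apart from the filter, under which 6 genes were tested.

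The sign of 2 changes near 0 turned at 4 against 0 dpa: hapln1a was -0.016 without the 4 libraries and -0.035 to 0.26 when 1 library was left out, and vcanb was -0.20 to 0.25. The fn1b/fn1a ratio over time had an adjusted exact p of 0.850 within set A and of 3.45e-04 to 0.0239 when 1 library was left out; the range for vcanb/vcana was 0.0157 to 0.205 and for has1/has2 3.00e-04 to 0.00242.

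The labels number replicates 1 to 3 in each group without saying what a number marks. Of 30 same-numbered pairs of libraries, 12 had deviations correlated over 0.1 (-0.63 to 0.65), and 6 of 15 libraries correlated best with their own number. With the replicate number as a block, 4, 2, 0 and 1 of the 9 genes were called at 4, 7, 14 and 21 against 0 dpa, 1 at 7 against 4 dpa, 0 at 21 against 14 dpa and 5 over time, as without it. Over all tested genes, the calls at 4 against 0 dpa (1568) were 531 with the deposited TPM, 2557 with TPM rescaled without the rRNA gene, 5071 with library weights, 851 with only the 2 time points and 949 within set A. Over the alternatives that kept all libraries or left out a set of them, the other counts ran from 869 (deposited TPM) to 7268 (library weights) over time in place of 2748, from 25 (set A) to 3128 (weights) at 7 against 0 dpa in place of 508, from 4 (set covariate) to 2960 (weights) at 14 against 0 dpa in place of 1041 and from 31 (set covariate) to 2308 (weights) at 21 against 0 dpa in place of 1392. They ran from 50 (without the 4 libraries) to 3957 (weights) at 7 against 4 dpa in place of 383, and from 78 (without the 4 libraries) to 262 (weights) at 21 against 14 dpa in place of 146.

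Levels near 1 scaled TPM, as of has1, has2, vcana and, at 0 dpa, tnc, make a fold depend on the pseudocount. Alternatives within set A, without the 4 libraries and of the ratios were chosen after seeing the data.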
